A study of Mus musculus with 3 samples.

Results

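The outer dense fibre and fibrous sheath genes followed here are Odf1, Odf2, Odf3, Odf4, Akap3, Akap4, Fscb, Ropn1, Ropn1l and Cabyr, a list drawn up with earlier results of these data known and matched to the tables by gene symbol. All 10 symbols were found among the 31053 genes of the count tables, and all 10 had UMIs in round and elongating spermatids. The data are single-cell RNA-seq libraries of testicular cells from C57BL/6 mice, 1 library for each of 3 genotypes: wild type (WT), GRTH knockout (KO) and GRTH knock-in (KI). GRTH, encoded by Ddx25, is a testis RNA helicase of germ cells and Leydig cells. KO mice lack it in every cell, and KI mice carry a human GRTH gene with a missense change that leaves the helicase without its phosphorylated form. The comparison asks how spermatids differ when GRTH, or only its phosphorylated form, is missing. The labels give 1 mouse of 8 weeks for each library and 7000 cells loaded, whereas the methods describe testes pooled from a pair of adult mice for each genotype. With 1 library per genotype no difference has a replicate, no test across animals was possible, and every interval below covers counting error only, at 95%.

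The sperm tail is built around an axoneme, the ring of microtubules that bends. Outer dense fibres run along the outside of the axoneme and stiffen it, and in the principal piece they are wrapped by the fibrous sheath, a scaffold that holds glycolytic enzymes and protein kinase A. Both structures are assembled while the spermatid elongates and its histones give way first to transition proteins and then to protamines, and transcripts made in round spermatids (RS) can be stored for translation in elongating spermatids (ES). In the dense fibres, Odf1 and Odf2 encode main structural proteins. Akap3 and Akap4 encode the anchoring proteins that form the sheath, Fscb a calcium-binding sheath protein, and Ropn1, Ropn1l and Cabyr proteins with a docking domain like that of the kinase's regulatory subunit, through which they bind such anchors.

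On the mouse genome GRCm38, with GENCODE M21 gene models, Odf1 (ENSMUSG00000061923) lies at chr15:38219203-38226735 on the plus strand and Odf2 (ENSMUSG00000026790) at chr2:29889221-29931746, also plus. Odf3 lies at chr7:140847805-140851018 (plus) and Odf4 at chr11:68921835-68927081 (minus). The sheath scaffold genes are at chr6:126853098-126874308 (Akap3, plus), chrX:7067519-7078609 (Akap4, plus) and chr12:64471330-64474690 (Fscb, minus). Ropn1 is at chr16:34649921-34678618 (plus) and Ropn1l at chr15:31441211-31453737 (minus), while the position of Cabyr is not given here. No stretch of 31 bases in the transcripts of 9 members recurred in another gene, and 63 of the 10179 such stretches of Odf2 (0.619%) did. An exon of Odf2 overlaps Gm23865 on the other strand. The gene body of Ropn1l overlaps Gm6361 on the same strand, so UMIs of Ropn1l may be shared.

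Promoter sequences were taken from RefSeq on GRCm38.p6 for 8 of the 10 members, which have 12 start sites among them; Odf1 and Cabyr had no entry. Reading the 250 bases before each start on both strands for words present in at least 3 members, the longest were 2 words of 9 letters. ACAGTGATG stood in Odf4, Akap3 and Akap4 and in 0.402% of 32851 mouse promoter windows, and GTGATGTCA stood in Akap3, Akap4 and Fscb and in 1.25% of them. In Akap3 and Akap4 the words overlap as ACAGTGATGTCA. The windows of the 3 sheath scaffold genes are printed because they share GTGATGTCA close to the start, 23 bases before it in Akap3, 36 in Akap4 and 52 in Fscb, with the shared words in capitals. They cover chr6:126852848-126853097 on the plus strand, chrX:7067265-7067514 on the plus strand and chr12:64474899-64475148 on the minus strand.
Akap3: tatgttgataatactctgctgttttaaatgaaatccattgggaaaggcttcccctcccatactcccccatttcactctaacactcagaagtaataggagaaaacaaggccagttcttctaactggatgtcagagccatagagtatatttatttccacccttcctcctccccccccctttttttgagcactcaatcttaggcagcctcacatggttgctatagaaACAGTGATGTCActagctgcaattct
Akap4: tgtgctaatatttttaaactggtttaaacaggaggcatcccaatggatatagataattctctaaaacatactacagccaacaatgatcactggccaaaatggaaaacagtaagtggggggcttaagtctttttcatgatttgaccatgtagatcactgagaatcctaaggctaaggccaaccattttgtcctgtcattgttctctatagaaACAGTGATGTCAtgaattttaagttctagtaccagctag
Fscb: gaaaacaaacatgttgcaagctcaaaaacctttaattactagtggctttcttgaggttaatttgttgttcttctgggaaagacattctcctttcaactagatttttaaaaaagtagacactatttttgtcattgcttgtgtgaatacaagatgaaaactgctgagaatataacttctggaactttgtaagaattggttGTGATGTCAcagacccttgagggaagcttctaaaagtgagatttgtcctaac
The words were chosen from these windows after they were read, and a match is a description of letters and not of a binding site. Of motifs known by name, the core of the CREM response element, TGACG, stood in 1 member (Odf2) and in 17.8% of all windows, and the core of the RFX motif, GTTGCC, in 2 members (Odf3 and Ropn1l) and in 10.4%.

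The libraries held 82973909 (WT), 91388296 (KO) and 73150373 (KI) UMIs, each UMI standing for 1 captured molecule, and 5857, 4055 and 1572 cells were kept. Kept cells had a median of 5140, 4017 and 11741.5 UMIs and a median mitochondrial share of 0.0583%, 1.64% and 1.32%. In mitochondrial share WT thus stood apart from both mutants in every comparison below, and in UMIs per cell KI stood above WT and KO. The part of either in the ratios was not tested. Of the barcodes called as cells, 51 were shared by WT and KI, 21 by WT and KO and 10 by KO and KI, and keeping each only in the library with most of its UMIs moved no member's ratio by more than its counting interval. Ddx25 was at 114 CPM (counts scaled to a total of 1e+06 UMIs) in RS-like cells of WT, at 0 UMIs in those of KO and at 135 CPM in those of KI. Clusters were made without the 10 members or 22 related genes, and were named from other markers. The germ cell clusters followed here are cluster 7 (spermatocyte-like, SP; 295 WT, 445 KO and 183 KI cells), cluster 2 (684, 527 and 260), cluster 9 (RS-like; 340, 218 and 99) and cluster 8 (the earliest ES-like cells; 465, 259 and 105). The name of cluster 9 rests on genes such as Acrv1, an acrosome protein, at 736, 751 and 774 CPM there, while Piwil1, a spermatocyte gene at 680, 528 and 588 CPM in cluster 7, was at 6.09, 11.1 and 3.18 CPM. Cluster 2 scored highest for SP markers and next for RS markers, but held Piwil1 at 26.8 CPM and Acrv1 at 318 CPM in WT, so it is called by its number only. Cluster 1 is also RS-like, with few UMIs per cell. The later ES-like clusters 6 and 5 held 810 and 1118 WT cells but 181 and 5 KO cells and 66 and 1 KI cells, so most ES-like cells of the mutants were early ones and most of WT were late.

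In WT the members fell into 3 groups by the timing of their CPM, a share of UMIs. Odf1, Odf2, Akap4 and Fscb were highest on that scale in the latest elongating spermatids. Odf3, Akap3, Ropn1 and Cabyr were highest in round or early elongating spermatids and low, or for Cabyr lower, afterwards. Ropn1l and Odf4 were already near their highest level in spermatocytes. Levels below are CPM of a gene's UMIs in the summed cells of a cluster, and are compared between clusters and libraries, not between genes, since they are not per length. Median UMIs per WT cell were 12948.5, 11872, 7750.5 and 3132.5 in clusters 9, 8, 6 and 5. A higher CPM in a later cluster need not mean more transcripts per cell, and levels per cell were not followed.

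**Figure D1:**
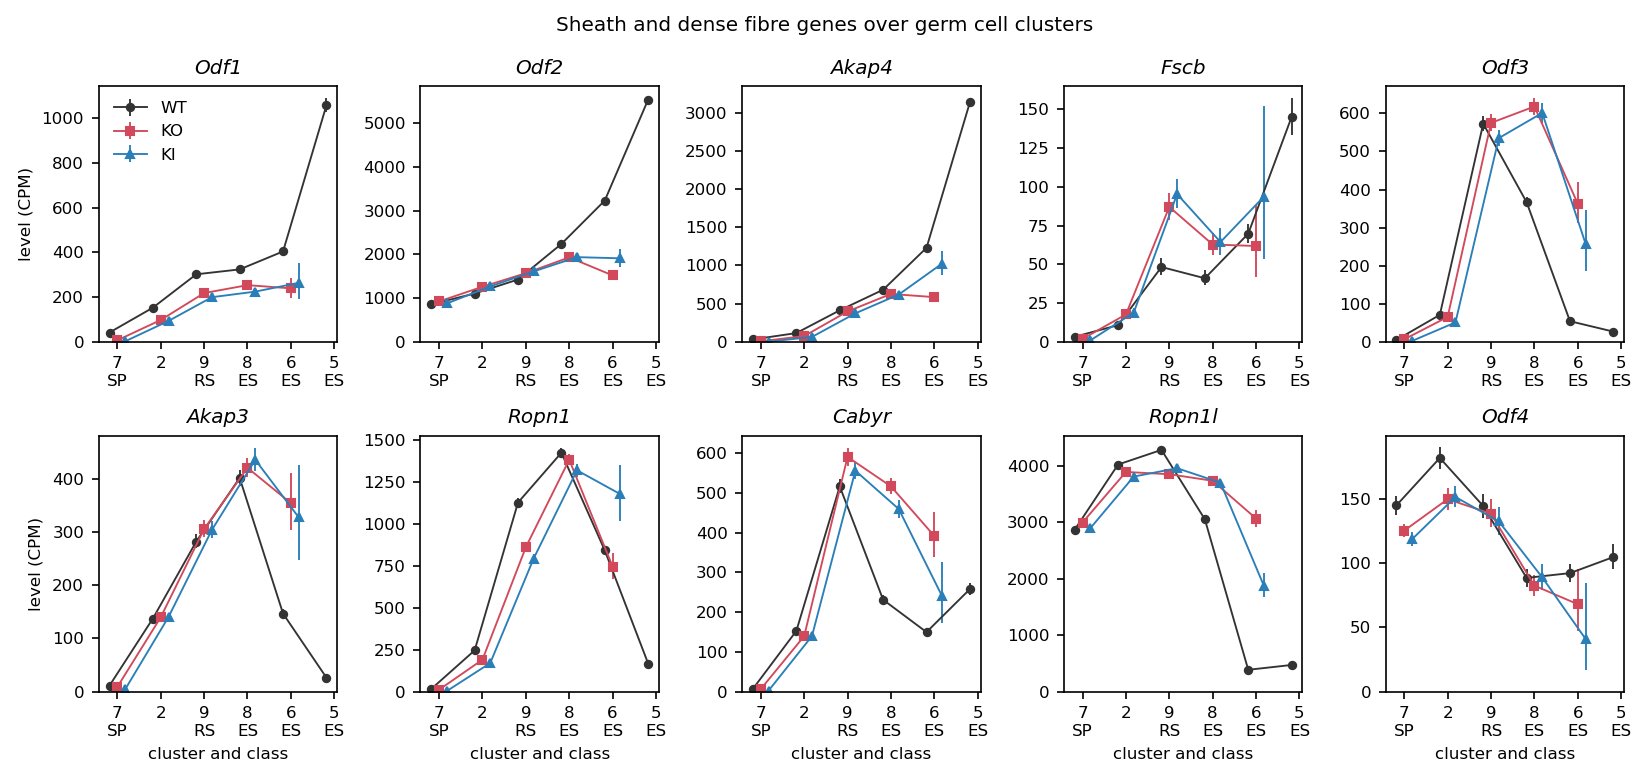
Level of each gene (CPM, linear axis from 0) in germ cell clusters ordered from spermatocyte-like (SP) through cluster 2 and round (RS) to elongating spermatid-like (ES), for WT (circles), KO (squares) and KI (triangles), where at least 20 cells were held; bars are 95% Poisson intervals. In WT Akap4 reached 3134 CPM in cluster 5, where KO and KI have no point, and Odf3 was highest in cluster 9 at 573 CPM. Cluster 6 held unlike cells in WT and mutants, with protamine and transition protein shares of 33.9% (WT), 5.25% (KO) and 12.2% (KI).

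Among the late genes, Akap4, the main structural protein of the sheath, stood at 31.8 CPM in cluster 7 of WT, 413 in cluster 9, 682 in cluster 8, 1230 in cluster 6 and 3134 in cluster 5. Odf1, a small heat shock-related protein that links the dense fibres to the head-tail coupling apparatus, went from 302 CPM in cluster 9 to 324, 404 and 1057 CPM in clusters 8, 6 and 5. The steps between clusters 9 and 6 were small beside the last step, a log2 difference of 1.39 between clusters 6 and 5. Odf2, which also belongs to the centriole, was high from the start, at 858 CPM in cluster 7, and stood at 1425, 2237, 3230 and 5536 CPM in clusters 9, 8, 6 and 5. Fscb was the least captured of them, with 48.3 CPM in cluster 9 and 145 CPM in cluster 5. In single cells thinned to 1000 UMIs, 1022 of 1105 WT cells of cluster 5 (92.5%) held a UMI of Akap4 and 68.3% held a UMI of Odf1, against 0% (0 of 11, which allows up to 27.3%) and 9.09% of WT cells gated on Sertoli markers.

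The genes of the middle group were highest in clusters 9 and 8 of WT. Odf3, a protein of the outer dense fibres and of other ciliary microtubules, stood at 5.06 CPM in cluster 7, 70.9 in cluster 2, 573 in cluster 9, 367 in cluster 8, 54.3 in cluster 6 and 26.9 in cluster 5. Ropn1 stood at 16.0, 246, 1127, 1424, 842 and 168 CPM in the same order. The WT levels of Odf3, Ropn1, Akap3 and Cabyr in cluster 7 lay below what free RNA, released from broken cells into every droplet, could give there, at most 18.8, 52.1, 13.7 and 15.1 CPM. Akap3, which organises the sheath's ribs together with Akap4, reached 402 CPM in cluster 8 and was at 26.4 CPM in cluster 5. Cabyr, a calcium-binding protein that becomes phosphorylated during capacitation, was highest in cluster 9 at 516 CPM and lowest among the later clusters in cluster 6 at 150 CPM, then 258 CPM in cluster 5. In cluster 5, whose cells held a median of 0.61 times their library's median UMIs, free RNA could give 29.8 CPM of Odf3, 21.7 of Akap3, 82.6 of Ropn1 and 24.0 of Cabyr, so the levels of Odf3 and Akap3 there are near background.

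Ropn1l, the closest relative of Ropn1 in the list, and Odf4, a membrane-associated protein of the tail, followed another course. Ropn1l stood at 2866 CPM in cluster 7 of WT and at 4018, 4277, 3049, 387 and 473 CPM in clusters 2, 9, 8, 6 and 5. It was thus high in clusters 7, 2 and 9 and much lower in cluster 6 than in cluster 8, a log2 difference of -2.97. Free RNA could give 156 CPM of it in cluster 6 and 397 CPM in cluster 5. Odf4 stood at 145 CPM in cluster 7 and at 182, 144, 88.5, 92.2 and 105 CPM in the same order. Ropn1, whose protein is alike, was 16.0 CPM in cluster 7, a level that free RNA could give.

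The same order appeared when RS-like and ES-like cells were placed along diffusion pseudotime, a distance through the cell neighbourhood graph, and split into 10 bins that hold equal numbers of WT cells. Median pseudotime of WT was 0.784 for SP-like cells, 0.827 for RS-like and 0.913 for ES-like ones. The first bin at 50% of a gene's highest WT bin was bin 1 for Akap3, Ropn1 and Cabyr, bin 2 for Odf3, bin 6 for Odf2, bin 8 for Akap4 and Fscb and bin 9 for Odf1. Ropn1l and Odf4 passed 50% in cells of the clusters scored as SP, cluster 2 among them, which were placed ahead of bin 1. In the last bin Odf3 was at 5.53% of its WT peak, Akap3 at 7.78%, Ropn1 at 10.1%, Ropn1l at 10.99%, Odf4 at 53.7% and Cabyr at 59.8%. Ordered instead by the share of a cell's UMIs from Prm1, Prm2, Tnp1 and Tnp2, the protamine and transition protein genes, Odf2 and Akap4 again passed 50% in a late bin (the fifth of 6), whereas Odf1 and Fscb passed it in the first, so the late onset of that pair depends on the order used.

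**Figure D2:**
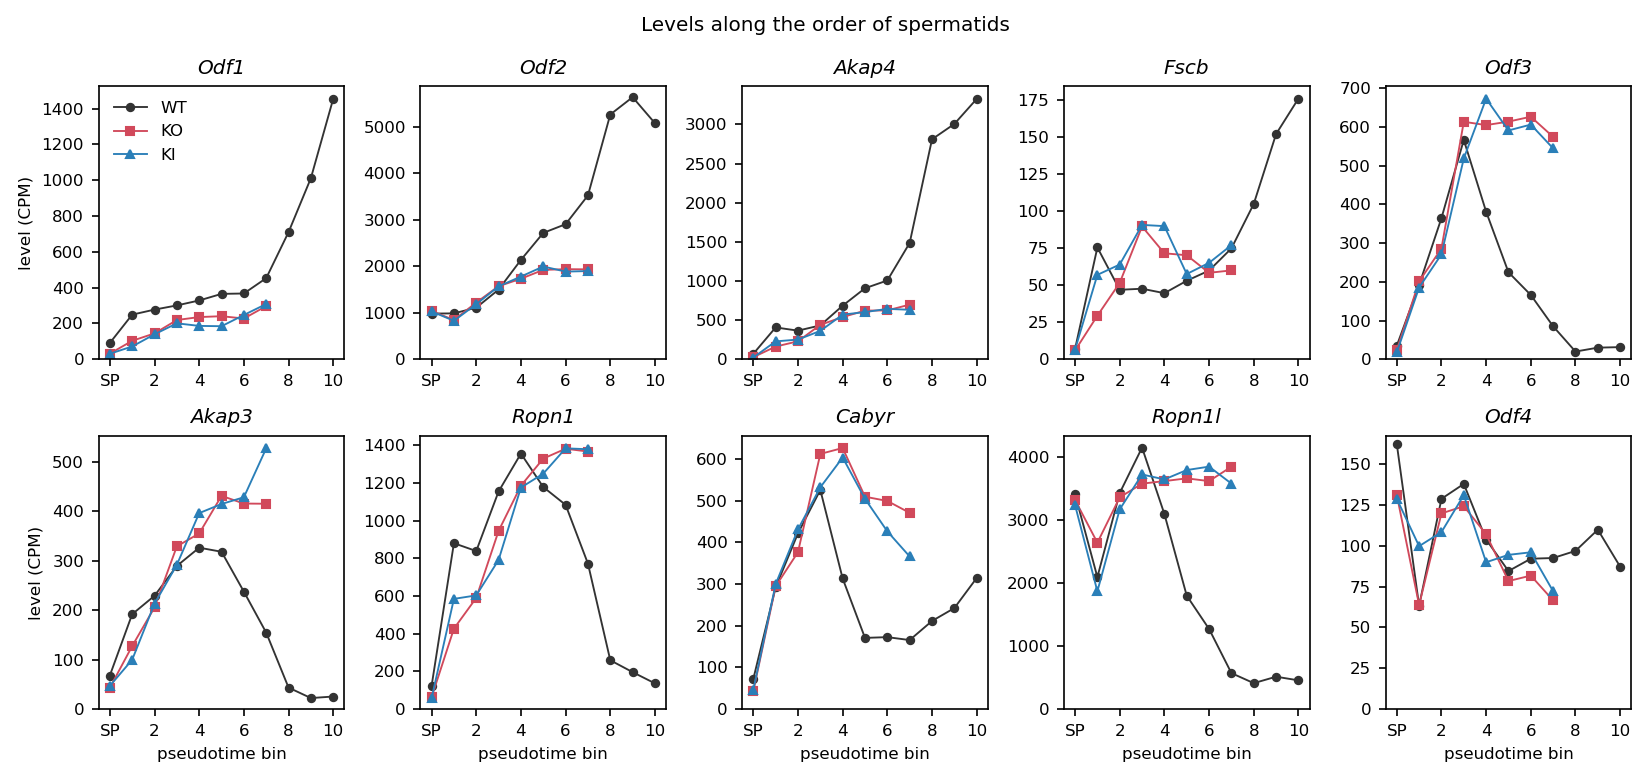
Level of each gene (CPM, linear axis from 0) in cells scored as SP (with cluster 2) and in 10 pseudotime bins of RS-like and ES-like cells, for WT (circles), KO (squares) and KI (triangles), with bins of at least 20 cells. From bin 4 on the mutant lines of Akap4 and Odf2 run below WT and those of Odf3, Ropn1l and Cabyr above it; in bin 7 Ropn1l was at 571 CPM in WT against 3844 in KO and 3576 in KI.

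All 10 genes had UMIs in round spermatids of KO and KI. In cluster 9, the round spermatids with most UMIs per cell, each of the 10 genes was present in both mutants, and the levels of 9 lay within 1.5-fold of WT in KO and those of 8 in KI. The exceptions were Fscb, higher in both mutants, and, in KI, Odf1, lower. Of all genes there, 10.7% were lower and 23.6% higher past 1.5-fold in KO, and 12.9% and 26.3% were in KI. In RS-like cluster 1, 4 members (Odf1, Akap4, Fscb and Ropn1) were past 1.5-fold lower in KO and 2 (Odf1 and Akap4) in KI, where 17.0% and 16.4% of all genes were. None was higher there, where 25.4% and 20.9% of all genes were, with member medians of -0.39 and -0.22 against 0.12 and 0.061 over all genes. The mean number of members with a UMI per cell after thinning to 1000 UMIs was 4.30 in WT against 4.08 in KO and 4.05 in KI in cluster 9, against 1.72, 1.66 and 1.69 in cluster 7.

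Odf1 was lower in both mutants in RS-like clusters 1 and 9 and in ES-like clusters 8 and 6, though cluster 6 held unlike cells in WT and mutants. In cluster 9 it stood at 302 CPM in WT against 218 in KO and 200 in KI, log2 ratios to WT of -0.47 (-0.58 to -0.36) for KO and -0.59 (-0.71 to -0.48) for KI. In cluster 8 it stood at 324, 253 and 224 CPM, with log2 ratios of -0.35 (-0.45 to -0.25) and -0.53 (-0.64 to -0.41). WT was thus highest in both clusters. In cluster 1 it stood at 221, 84.7 and 96.4 CPM. In cluster 9 a UMI of Odf1 was found in 27.4% of thinned WT cells (22.7 to 32.4), 21.1% of KO cells (15.9 to 27.1) and 17.2% of KI cells (10.3 to 26.1), and without thinning in 95.9%, 89.4% and 99.0%. Cells that should lack the gene, gated on at least 1% of UMIs from Sertoli markers, numbered 27, 26 and 26, and of the 11, 15 and 14 deep enough to thin, 9.09%, 0% and 0% held a UMI of Odf1. Taking 3 counts as the most that a count of 0 allows, shares of up to 20% and 21.4% are possible in KO and KI (Clopper-Pearson limits 21.8% and 23.2%), and the gated cells had medians of 944, 1161 and 1082 UMIs against 12948.5, 14868.5 and 30558 in cluster 9. The gate was set after the data were seen.

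Free RNA moved with this difference. Barcodes with too few UMIs to be cells held Odf1 at 370 CPM in WT against 159 in KO and 170 in KI, and in cluster 7 Odf1 was at 41.8, 6.96 and 2.24 CPM. That is 11.3% of the empty level in WT, while Odf3 in the same WT cells was at 1.73% of its own empty level. The fall in cluster 7 was not particular to Odf1, since Akap4 stood there at 31.8, 7.31 and 2.55 CPM. The median log2 ratio of the 10 members in that cluster was -0.27 in KO and -1.17 in KI, beside -0.012 and 0.0056 over all genes. Only 6 members reached a mean of 10 CPM there, with medians of -0.31 and -1.03, and the others were near the floor. Free RNA was put at no more than 6.43% of cluster 7 UMIs for WT, 1.58% for KO and 0.447% for KI. The empty profile was then subtracted, by a number of UMIs per cell set from Sertoli-marker cells. This left log2 ratios of Odf1 in RS-like cells at -0.57 for KO and -0.63 for KI, against -0.61 and -0.65 without subtraction. Setting the free share from cluster 7 instead gave -0.58 and -0.62.

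Fscb, on the other hand, was higher in both mutants in cluster 9. Its level in cluster 9 was 48.3 CPM in WT against 87.1 in KO and 95.3 in KI, log2 ratios of 0.84 (0.62 to 1.05) and 0.97 (0.76 to 1.18). In RS-like cluster 1, with more cells and few UMIs per cell, it was not: 65 UMIs in WT and 36 in each mutant gave 50.2, 27.0 and 42.9 CPM, log2 ratios of -0.87 (-1.48 to -0.28) and -0.22 (-0.84 to 0.37). There 3.64%, 4.11% and 3.63% of thinned cells held a UMI of Fscb. In cluster 2 the gene was at 10.8, 17.7 and 18.9 CPM. In cluster 8 it was 41.0, 62.8 and 64.4 CPM. There its log2 ratios were 0.60 and 0.64, beside medians over all genes of 0.62 and 0.64, and with TMM scaling they were -0.13 and -0.09.

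Ropn1 was the only other member more than 0.3 away from WT on the log2 scale in cluster 9, at 1127 CPM in WT against 861 in KO and 794 in KI, log2 ratios of -0.39 (-0.44 to -0.33) and -0.51 (-0.56 to -0.45). Without integration of the libraries, which changes the cells counted as RS-like, the ratio over all RS-like cells turned from -0.44 to 0.15 in KO. The share of thinned cells of cluster 9 with a UMI of Ropn1 was 68.5%, 55.0% and 50.5%. In cluster 8 the levels were 1424, 1382 and 1320 CPM and the log2 ratios -0.04 and -0.11, although against the median over all genes they were -0.66 and -0.75. Akap4 in cluster 9 was at 413, 398 and 373 CPM, Akap3 at 282, 306 and 304, Odf3 at 573, 575 and 535, and Odf4 at 144, 138 and 132. Ropn1l was at 4277, 3847 and 3953 CPM, Odf2 at 1425, 1569 and 1609 and Cabyr at 516, 591 and 556. Among these 7 genes no log2 ratio in cluster 9 was beyond 0.2 in either direction, and the signs for Odf2, Akap3 and Cabyr (and Odf3 in KO) turned with TMM scaling or without the protamine genes in the totals.

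**Figure D3:**
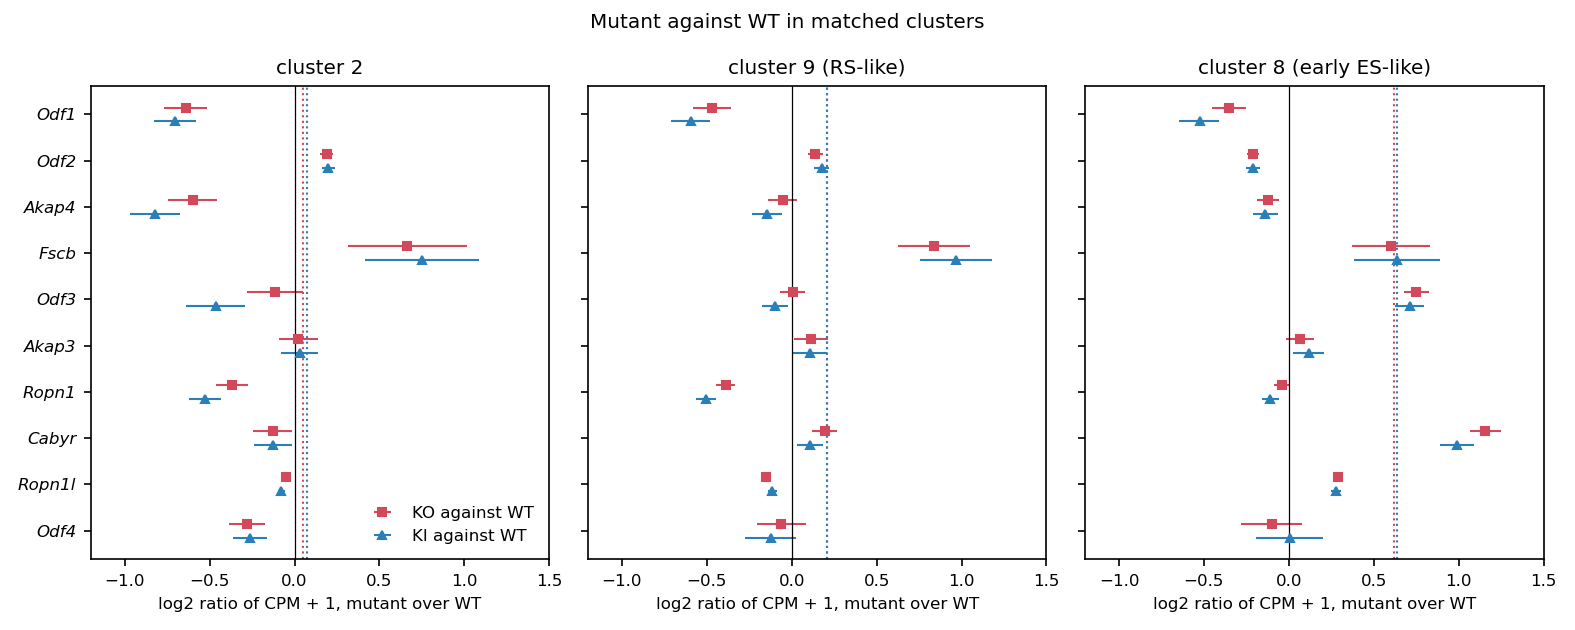
Log2 ratio of CPM + 1, mutant over WT, for each gene in clusters 2, 9 and 8, KO as squares and KI as triangles, with 95% intervals for counting error; dotted lines are the medians over all genes. In cluster 9 Fscb lies right of 0, Odf1 and Ropn1 left of it, and in cluster 8 Cabyr lies farthest right at 1.16 in KO and 0.99 in KI.

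Over all RS-like cells the members' median ratio was below that of all genes. For RS-like cells (clusters 1 and 9 together) the median log2 ratio of the members was -0.09 in KO and -0.09 in KI, while that of all 8178 genes with a mean of at least 10 CPM was 0.20 and 0.19. Relative to that shift 9 of 10 members were below the median gene in KO and in KI, with Fscb above it, and Odf1 was at -0.81 and -0.84. Without integration the members' median lay above that of all genes, by 0.25 in KO and 0.02 in KI. Past 1.5-fold lower were 1 member, Odf1, in each mutant, where 9.99% of all genes were in KO and 11.6% in KI. Past 1.5-fold higher were 1 member, Fscb, in each, where 23.6% of all genes were in KO and 23.9% in KI. These counts are near or below those of all genes. In KO no member was past 1.5-fold lower after either free RNA subtraction, with cells called by totals, without integration, or in cluster 9 alone. In KI none was lower without integration. From 10.3% to 11.8% of all genes were lower in those KO settings, and 9.64% in that of KI. In KO no member was higher without protamine genes in the totals, with 10 CPM added or with classes by protamine share. Of all genes 22.5%, 14.8% and 20.8% were higher there. Beside such shares, a count of 0 among 10 members does not set the members apart. TMM scaling turned the split of all genes to 19.2% lower and 12.1% higher in KO and 18.4% and 13.7% in KI, and put 2 members lower in each and 0 (KO) or 1 (KI) higher.

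In cluster 8, the earliest ES-like cells, Cabyr and Odf3 of the middle group were higher in the mutants. Cabyr stood at 231 CPM in WT against 516 in KO and 459 in KI, log2 ratios of 1.16 (1.07 to 1.25) and 0.99 (0.89 to 1.09). Odf3 stood at 367, 618 and 601 CPM, log2 ratios of 0.75 (0.68 to 0.83) and 0.71 (0.63 to 0.79). Both mutants were above WT and close to each other for both genes. Relative to the median over all genes of that cluster, Cabyr was at 0.54 and 0.35 and Odf3 at 0.13 and 0.07, and with TMM scaling Odf3 was at 0.01 and -0.03. Odf2 was lower, at 2237 CPM in WT against 1931 in KO and 1936 in KI, and Akap4 was at 682, 627 and 619 CPM. The libraries differed within cluster 8 in another respect: 21.9% of UMIs came from protamine and transition protein genes in WT, 8.09% in KO and 8.20% in KI, and a different stage cannot be told apart from a change of these genes with genotype.

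Over all ES-like cells (2393 WT, 445 KO and 172 KI) most members of the late and middle timing groups differed in opposite directions. Odf1, Odf2 and Akap4, late genes, were past 1.5-fold lower in both mutants, with log2 ratios of -1.02, -0.83 and -1.21 in KO and -1.19, -0.79 and -1.17 in KI. Odf3, Akap3, Cabyr and Ropn1l were past 1.5-fold higher in both, with log2 ratios of 1.85, 0.94, 1.31 and 1.39 in KO and 1.82, 0.99, 1.13 and 1.36 in KI. Not past it were Fscb of the late group (-0.28 and -0.20), Ropn1 of the middle group (0.55 and 0.52) and Odf4 (-0.20 and -0.11). The sign of Fscb turned in 2 of 14 alternatives in KO and 4 in KI, and that of Odf4 in 3 in KI. So 3 of 10 were lower, where 7.8% of 6679 genes were in KO and 7.34% in KI, and 4 were higher, where 68.3% and 67.1% were. With TMM scaling Ropn1 turned to -0.74 and -0.76, Akap3 to -0.34 and -0.29 and Cabyr in KI to -0.15, and 6 members were lower and 0 higher in each mutant, beside 35.9% of all genes lower and 24.4% higher in KO and 37.3% and 24.5% in KI. In WT most of these cells were in clusters 5 and 6 and in the mutants most were in cluster 8, and in cluster 8 alone 0 members were lower and 3 higher past 1.5-fold in each mutant, where 7.87% of all genes were lower and 51.9% higher in KO and 6.64% and 52.6% in KI. The mix of stages cannot be told apart from a change within a stage in these sums.

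Along pseudotime, Odf2 and Odf3 of the mutants were in bin 7 near levels that WT had in bins 4 and 3. Akap3 of both mutants was there above every WT bin. In bin 7, with 342 WT, 94 KO and 29 KI cells, Akap4 was at 1486 CPM in WT against 698 in KO and 632 in KI. Odf2 in the same bin was at 3523, 1933 and 1896 CPM, close to the 2137 CPM of WT in bin 4. Odf3 was at 85.1, 575 and 545 CPM, close to the 567 CPM of WT in bin 3. These 2 late genes of the mutants were under WT and this middle gene over it. Of the other late genes, Odf1 was at 453, 297 and 309 CPM and Fscb at 74.9, 60.1 and 77.2 CPM. Of the other middle genes, Akap3 was at 155, 415 and 528 CPM, Ropn1 at 772, 1367 and 1379 CPM and Cabyr at 165, 470 and 366 CPM. The highest WT bins of these genes were at 327 (bin 4), 1356 (bin 4) and 525 CPM (bin 3). These levels are scaled by totals, on which most genes were higher in ES-like cells of the mutants, and no other scaling was run on the bins. Pseudotime was computed on the integrated libraries, so an equal bin need not be an equal stage. Bins 9 and 10 held 2 KO cells and 1 KI cell, against 342 and 343 WT cells, so the levels of Akap4 at 3325 CPM and Odf1 at 1455 CPM that WT reached in bin 10 have no counterpart in the mutants.

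Comparing spermatids that had the same share of UMIs from protamine and transition protein genes made several of these differences smaller. These genes may themselves differ with genotype, so an equal share need not be an equal stage. Free RNA also enters the share: empty barcodes held 4.88% (WT), 1.77% (KO) and 2.40% (KI) of UMIs from these genes. Its part in the placing of cells in bins was not tested. Of 5 bins up to 20%, Odf1 was lower than WT in 5 of 5 in both mutants, with log2 ratios from -1.01 to -0.27 in KO and from -1.14 to -0.64 in KI. Fscb was higher in 4 of 5 bins in KO and 5 of 5 in KI. Odf4 was lower in 5 of 5 bins in KO and 4 of 5 in KI, Cabyr higher in 5 and 4, and Akap3 higher in 4 and 5. Signs were counted also where the interval spans 0. In KO, Cabyr was at 0.045 (-0.056 to 0.15) under 0.5%, and Odf4 at -0.21 (-0.50 to 0.06) from 0.5 to 2%. In all spermatids under 2% the median over all genes was 0.17 in KO and 0.15 in KI, so small positive ratios there do not exceed the general shift. The bin of 10 to 20% held 31 KO and 18 KI cells against 341 WT cells. Akap4 was within 0.3 of WT in the 4 bins up to 10% and at -0.62 in KO and -0.68 in KI in the bin of 10 to 20%. In that last bin Odf3 was at 0.74 and 0.79, and Odf2 at -0.25 and -0.19. In all spermatids of 10% and over, most of them above 20% in WT, the median over all genes was 0.87 in KO and 0.83 in KI. The positive ratios of the last bin do not exceed that shift, and the shift within the bin itself was not computed. Above 20% no KO cell and 3 KI cells were left, against 1975 WT cells, so late spermatids could not be compared.

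**Figure D4:**
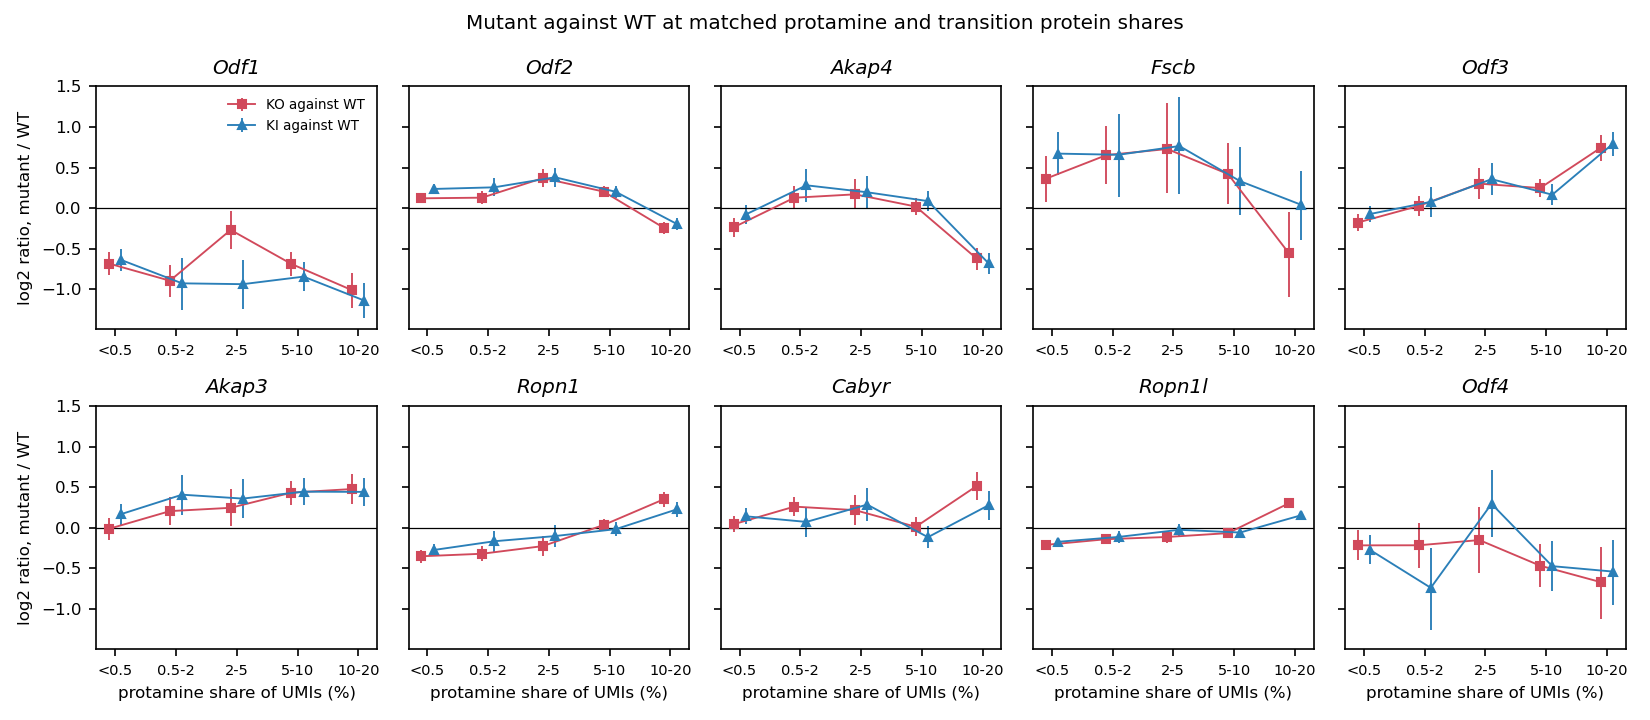
Log2 ratio of CPM + 1, mutant over WT, in spermatids binned by the percent of UMIs from Prm1, Prm2, Tnp1 and Tnp2, KO as squares and KI as triangles, with 95% intervals for counting error. Odf1 lies below 0 in all 5 bins of both mutants, and Akap4 is at -0.62 in KO and -0.68 in KI in the last bin.

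KO and KI were also set against each other for genes that differed from WT, the library they share as control. Odf1 had a log2 ratio of KI over KO of -0.17 (-0.30 to -0.05) in cluster 8, -0.13 (-0.26 to 0.0039) in cluster 9 and -0.04 (-0.17 to 0.08) over RS-like cells. Cabyr in cluster 8 was at -0.17 (-0.26 to -0.08) and Odf3 there at -0.04 (-0.12 to 0.04). Fscb was at 0.04 (-0.21 to 0.28) in cluster 8, 0.13 (-0.07 to 0.33) in cluster 9 and 0.23 (0.05 to 0.42) over RS-like cells. Ropn1 was at -0.12 (-0.18 to -0.05) in cluster 9 and -0.07 (-0.12 to -0.01) in cluster 8. Of these intervals those of Odf1, Cabyr and Ropn1 in cluster 8 and that of Ropn1 in cluster 9 lie below 0, and that of Fscb over RS-like cells above it. Those of Odf3 and Fscb in cluster 8 span 0. They cover counting error alone, with no measure of the spread between animals.

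Other genes of the sheath and fibres, a list of 22 that holds anchoring, kinase and glycolytic proteins, were set beside the members. In RS-like cells their median log2 ratio was 0.03 in KO and 0.04 in KI, and past 1.5-fold 0 were lower and 4 higher in KO and 3 were lower and 3 higher in KI. Beside the 23.6% and 23.9% of all genes that were higher and the 9.99% and 11.6% that were lower, these counts do not set the list apart. Those past it in the same direction in both were Fsip2, a very large protein bound by sheath anchors, Odf2l, a centriolar relative of Odf2, and Spag5, a spindle protein that binds Odf1. Fsip2 stood at 446 CPM in WT against 807 in KO and 945 in KI, log2 ratios of 0.85 and 1.08. Odf2l was at 13.1, 36.3 and 34.9 CPM and Spag5 at 7.15, 14.98 and 13.2 CPM. In cluster 1 the log2 ratios of Fsip2 were 0.52 and 0.86.

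Across 41 sums, 1 for each library and each of its clusters with at least 50000 UMIs, the log2 level of the 10 members was averaged and set beside each of 4275 other genes. The highest correlations were those of 1700013F07Rik (r = 0.976), Tbc1d21 (0.976), Tex43 (0.973), Fam221b (0.967), Tmem247 (0.966), Armc12 (0.965), Gstt4 (0.960), Actl7a (0.960), Tmco5 (0.959) and Tmco2 (0.958). Sums of 1 library share its depth and free RNA, so r is a description only. Among the members themselves r was 0.96 between Ropn1 and Cabyr, 0.93 between Odf1 and Akap4 and 0.93 between Akap4 and Fscb, but -0.08 between Odf1 and Ropn1l and 0.02 between Akap4 and Ropn1l.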

How the data were processed

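Raw UMI counts per gene and barcode were deposited by the authors for each library, neither normalized nor filtered, after alignment to mm10. The labels name Cell Ranger 2.1.1 and the file headers Cell Ranger 4. The members and lists were chosen with earlier results of these data known. Cells were called from UMI totals and then by comparison with 45001 empty barcodes of each library, and kept where they had over 500 genes and a mitochondrial share under 10%. Libraries were integrated with Seurat 5.3.0 and sctransform 0.4.2 on 2000 genes (0 of them members) and 100 principal components, and clustered with scanpy 1.11.5 (Leiden resolution 0.3) into 14 clusters named by mean marker score. Doublets were kept; Scrublet marked 170 WT, 4 KO and 2 KI cells and so hardly separated any in the mutants. UMIs were summed over cells of a cluster, scaled to CPM by the total, and compared as log2 ratios after adding 1 CPM. Intervals are exact Poisson, binomial or Clopper-Pearson at 95%. UMIs of free RNA, and PCR or capture differences between libraries, are not covered by them. The named genes are all members, genes of the related list past 1.5-fold in the same direction in both mutants in RS-like cells, and the 10 genes nearest in profile. Depth limited the ES-like cells of KI most, with 3687693 UMIs against 18719451 in WT. Alternatives covered scaling, added CPM, filters, cell calling, integration, clustering, doublets, free RNA and classes; removal of shared barcodes, free RNA by share and clusters 9 and 8 alone were added after seeing the data.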

Additional observations from a re-analysis of the deposited data

Results flagged for a closer look

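Odf2, Odf3 and Ropn1l had log2 ratios of opposite sign in RS-like cluster 9 and in cluster 8, the earliest ES-like cells, of the same mutant. Odf2 was at -0.21 in cluster 8 and 0.14 in cluster 9 in KO, and at -0.21 and 0.18 in KI. Odf3 in KI was at 0.71 in cluster 8 and -0.10 in cluster 9. Ropn1l was at 0.29 in cluster 8 and -0.15 in cluster 9 in KO, and at 0.28 and -0.11 in KI. With TMM scaling none of these pairs had opposite signs: in clusters 8 and 9 Odf2 was at -0.95 and -0.14 in KO and -0.95 and -0.07 in KI, Ropn1l at -0.45 and -0.43 in KO and -0.46 and -0.36 in KI, and Odf3 of KI at -0.03 and -0.34. Relative to the median over all genes, Odf2 and Ropn1l were below 0 in both clusters of both mutants, and Odf3 of KI was at 0.07 in cluster 8 and -0.31 in cluster 9. With 1 library per genotype the difference between the clusters was not tested. In cluster 8 protamine and transition protein genes took 21.9% (WT), 8.09% (KO) and 8.20% (KI) of UMIs, and in cluster 9 they took 2.07%, 0.644% and 0.416%.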

How the results depend on the processing

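Odf1 was lower than WT under each of 14 alternatives, from -0.89 to -0.33 on the log2 scale in RS-like cells of KO and from -0.87 to -0.52 in those of KI, and Fscb in RS-like cells was higher under each, from 0.31 to 0.84 and from 0.61 to 0.97, though not in cluster 1 taken by itself. Odf2, Akap3 and Cabyr in RS-like cells changed sign with TMM scaling. With TMM the members' median log2 ratio was -0.37 (KO) and -0.31 (KI) in RS-like and -1.10 and -1.07 in ES-like cells, and in ES-like cells Ropn1 was at -0.74 and -0.76, Akap3 at -0.34 and -0.29 and Cabyr of KI at -0.15. In ES-like cells Fscb ranged from -6.25 to 0.60 in KO and from -1.47 to 1.17 in KI, and Odf4 of KI from -1.38 to 0.16. Without protamine and transition protein genes in the totals the ES-like median was -0.16 and -0.12. Cells called by UMI totals alone gave -0.015 in RS-like cells of KO, classes by protamine share gave 0.36 in ES-like cells of KI, and clusters 9 and 8 alone gave 0.012 and 0.062 for ES-like. Without integration the medians were 0.27 and 0.12 in RS-like and -0.47 and 0.071 in ES-like cells, Cabyr in ES-like cells was at -0.44 (KO) and -0.24 (KI), and Akap4 and Ropn1l of KI at 0.054 and -0.28; only 3 KO and 7 KI cells were then ES-like, and in RS-like cells Ropn1 of KO was at 0.15 and Akap4 at 0.36 (KO) and 0.14 (KI). The cause of these moves was not tested. Relative to all genes the members' median for RS-like cells came to -0.29 (KO) and -0.29 (KI), but 0.25 and 0.02 without integration. No paired analysis was possible because each genotype has 1 library, and for the same reason no replicate could be left out. Depth limits ES-like cells of the mutants most.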
